A study of Mus musculus with 8 samples.

Results

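A set of 6 genes that mark parvalbumin neurons and their subtypes was followed in nuclear RNA of cortical GABAergic neurons: Pvalb, Tac1, Pthlh, Vipr2, Tpbg and Mef2c. They were chosen by name, as markers of basket cells, chandelier cells and maturation, and are 6 of the 55341 genes in each count table. Unc5b was set aside by the same choice. All 6 passed the filter on low counts and were among the 17355 genes tested. The question named by the study's title is how thyroid hormone times the maturation of parvalbumin neurons after birth.

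Parvalbumin neurons are fast-spiking inhibitory neurons. The basket cells among them contact the cell bodies of their targets, and the chandelier cells contact the initial segment of the axon. They mature late in the postnatal cortex, and the calcium buffer parvalbumin appears late in that course. Thyroid hormone acts through nuclear receptors that bind DNA and change the transcription of target genes.

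The 8 libraries came from individual cortices of juvenile mice, 1 library per mouse. In the PTU group (mice 9 to 12, n = 4) the pregnant mothers had been given propylthiouracil (PTU), a blocker of thyroid hormone synthesis, so that the young were hypothyroid. Mice 13 to 16 form the PTU+TH group (n = 4), which had the same PTU exposure and an intraperitoneal injection of thyroid hormone 24 h before the brain was taken. Both groups thus carry PTU exposure, and no mice with normal thyroid function were analysed here. All mice carried a Cre-dependent reporter, a nuclear fluorescent protein limited to GABAergic neurons, and the labels name neither the Cre driver nor the age in days, sex or litter. The nuclei were collected with a cell sorter. In such bulk libraries, fewer cells of a type and less RNA per cell cannot be told apart.

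Library totals lay between 21.8 and 29.1 M counts, with no difference detected between the groups (24.0 ± 1.39 M in the PTU group and 24.1 ± 3.37 M in the PTU+TH group, mean ± SD of 4 libraries, p = 1 in a two-sided exact permutation test). Libraries stood apart by mouse number within the groups. The chi-square per degree of freedom between counts was 18.6 for mice 9 and 10 and 8.89 for mice 11 and 12, and 29.7 to 72.6 for PTU pairs across these sets. In the PTU+TH group it was 8.38 for mice 13 and 14 and 10.6 for mice 15 and 16, against 16.4 to 24.8 across. The labels name no batch. Counts of Y-linked genes were 0 in mice 15 and 16 and present in the other 6 libraries. The pan-GABAergic genes Gad1 and Gad2 were present in every library, with means of 9.12 and 6.17 CPM (counts scaled to the size of the library) per kilobase (kb) of gene body over the 8 libraries, and 58.4 and 75.3 CPM per kb of exon. Slc17a7, which defines excitatory neurons, was at 3.02 CPM per kb of gene body and 6.83 CPM per kb of exon, close to the pan-GABAergic gene Slc32a1 at 3.20 and 5.69 CPM. Of the 8 pan-GABAergic genes listed, Dlx1 and Dlx6 had no count in any library, and both lie wholly inside other genes. The summed excitatory markers, 9 of 9 of them tested, ranged from 244 to 279 CPM in the PTU group and from 241 to 327 CPM in the PTU+TH group. A list of 3 genes known to respond to thyroid hormone checked the injection, and all 3 rose by edgeR's test. Hr went from 1.80 to 26.6 CPM (adjusted p = 6.59e-07), Klf9 from 19.6 to 50.9 CPM (adjusted p = 0.00223) and Dbp from 7.44 to 15.9 CPM (adjusted p = 0.00639). The calls of Klf9 and Dbp were lost in 1 of 20 alternatives, the libraries with Y-linked counts alone, and that of Hr in 0.

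The upstream sequence of Pvalb, Vipr2 and Mef2c is shown because these genes represent the class marker, the only member whose groups did not overlap, and the only member with a thyroid receptor half-site in its windows. The half-site searched was AGGTCA, on both strands. RefSeq (GRCm38.p6) gave 10 windows of 250 bases before annotated starts for the 6 members, and all 6 matched by symbol. AGGTCA occurred in 2 of the 10 windows, both of Mef2c, and in 14.0% of 32851 such windows of all genes. The MEF2 consensus, the sequence bound by the protein that Mef2c encodes, occurred in 0 of the 10 and in 0.508% of all windows. The Mef2c window below is that before the start at position 83573607, and its capitals mark 2 matches that read TGACCT on the printed strand, whose first bases lie 116 and 72 bases before the start. The Pvalb window is on the minus strand of chromosome 15 and the other 2 are on the plus strand. A match is a description of letters and not evidence of binding.
Pvalb chr15:78206401-78206650: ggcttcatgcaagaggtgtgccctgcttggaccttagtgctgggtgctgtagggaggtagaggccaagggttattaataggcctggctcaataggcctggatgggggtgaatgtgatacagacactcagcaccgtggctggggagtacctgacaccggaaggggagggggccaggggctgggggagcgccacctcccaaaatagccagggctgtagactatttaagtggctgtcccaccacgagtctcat
Vipr2 chr12:116077476-116077725: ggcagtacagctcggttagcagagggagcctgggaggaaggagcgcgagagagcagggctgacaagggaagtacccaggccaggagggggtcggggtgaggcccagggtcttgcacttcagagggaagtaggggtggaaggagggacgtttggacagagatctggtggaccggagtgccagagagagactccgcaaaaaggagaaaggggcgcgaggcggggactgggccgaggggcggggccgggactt
Mef2c chr13:83573357-83573606: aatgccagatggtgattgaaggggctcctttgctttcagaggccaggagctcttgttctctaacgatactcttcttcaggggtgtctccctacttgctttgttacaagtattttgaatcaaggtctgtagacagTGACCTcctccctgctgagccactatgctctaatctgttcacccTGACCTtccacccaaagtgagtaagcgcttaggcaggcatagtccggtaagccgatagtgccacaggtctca

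None of the 6 members passed the threshold (adjusted p under 0.05 by edgeR over all 17355 genes), and 0 of 6 was read against a background of 2.12% of genes called. Of all genes, 1.49% were called higher and 0.634% lower. 1 member, Vipr2, had an unadjusted p under 0.05, against 12.8% of all genes tested. Vipr2 was also the 1 member whose libraries did not overlap between the groups, with all 4 PTU+TH libraries below all PTU libraries, against 4.03% of genes in that direction and 4.68% in the opposite one. The log2 fold change was positive for 4 members and negative for 2, with a median of 0.033, beside -0.0066 over all genes tested. DESeq2, run as an alternative, called 1 of the 6, Vipr2, against 4.63% of the 16345 genes to which it gave an adjusted p.

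**Figure D1:**
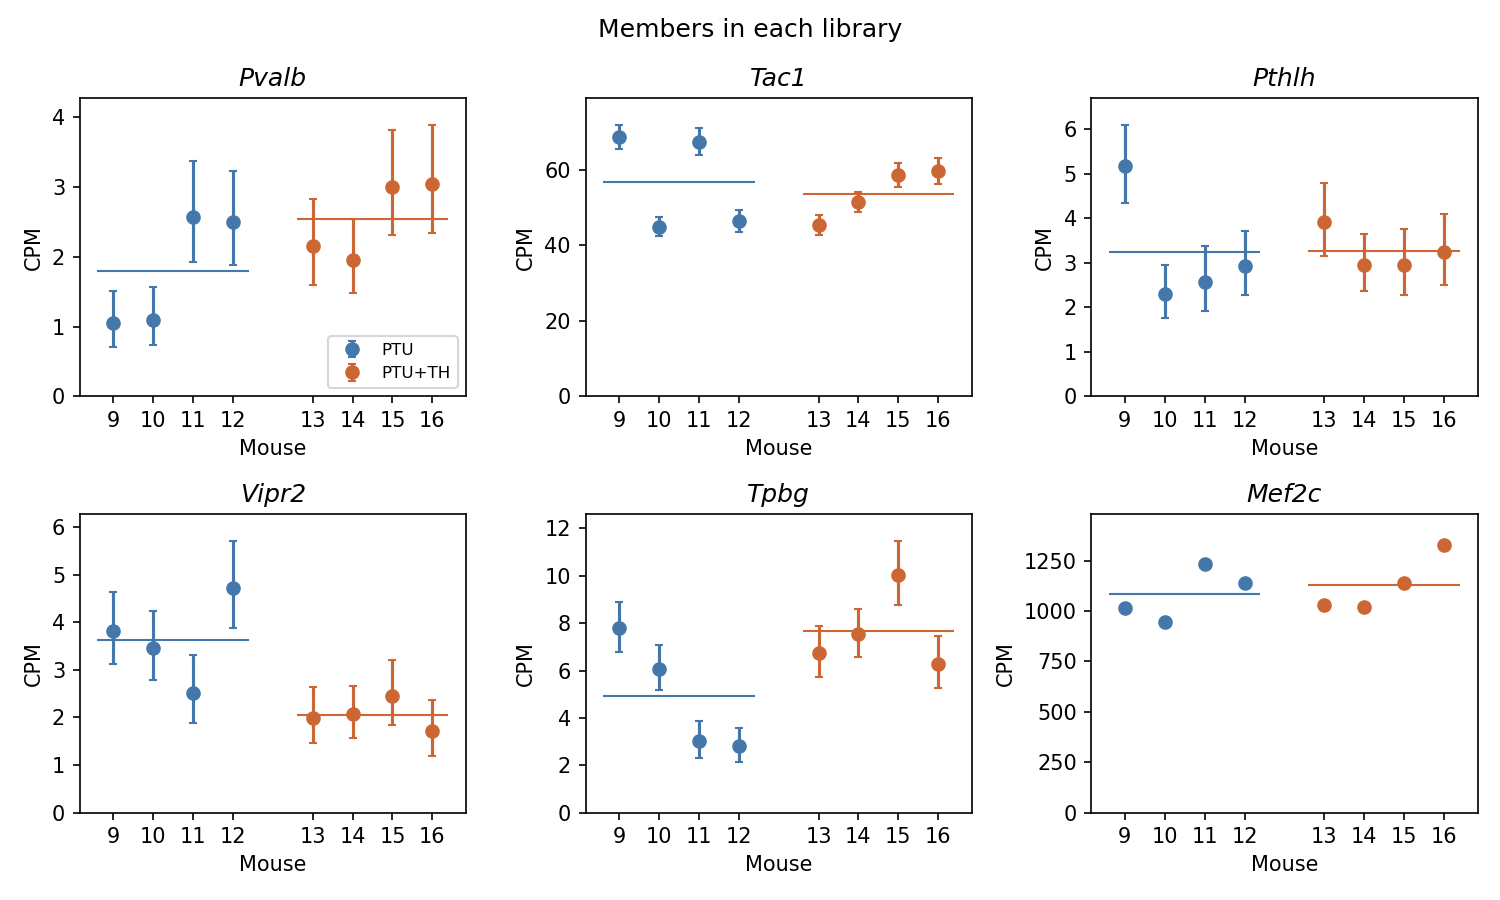
CPM of each of the 6 members in every mouse, with PTU mice 9 to 12 and PTU+TH mice 13 to 16. Points are libraries, bars are exact Poisson 95% intervals for counting error only, and horizontal lines are group means. Vipr2 is the panel in which all 4 PTU+TH points lie below all 4 PTU points.

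Pvalb encodes parvalbumin, the cytosolic calcium buffer that gives these neurons their name. The gene lies on chromosome 15 at 78191114 to 78206400 of GRCm38, on the minus strand, and shares no base with another annotated gene. Its counts were low, between 29 and 66 per library. In the PTU group Pvalb stood at 1.06, 1.09, 2.57 and 2.49 CPM in mice 9 to 12. In the PTU+TH group it stood at 2.15, 1.96, 2.998 and 3.05 CPM in mice 13 to 16. Mice 9 and 10 were low, mice 11 and 12 lay within the range of the injected mice, and the groups overlapped. The 2 highest values belonged to mice 15 and 16, the libraries without Y-linked counts.

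The group means of Pvalb were 1.80 ± 0.843 CPM and 2.54 ± 0.564 CPM (SD, n = 4 each). The log2 fold change was 0.50 with an SE of 0.34 and a 95% interval from -0.24 to 1.24, and edgeR's adjusted p was 0.629. As a ratio the interval runs from 0.848 to 2.36, so that these libraries bound the change only loosely. The coefficient of variation among PTU libraries was 46.8%, against 15.5% given by counting error alone, and among PTU+TH libraries it was 22.2% against 13.0%. Split by mouse number, which is not a group of the labels and was chosen with earlier results known, mice 9, 10, 13 and 14 gave a log2 ratio of 0.94 and the other set 0.25, and each injected mouse lay above each PTU mouse of its own set. The difference between these sets was not tested. With the Y-linked counts as a covariate the log2 fold change was 0.20 (adjusted p = 0.961 by edgeR). Only PTU+TH mice 15 and 16 lack such counts, so that fit takes the group difference from the other libraries alone. The part of Y-linked counts in the difference was not tested further.

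Syt2, the synaptotagmin of fast-spiking terminals, rose where Pvalb did not pass. Its PTU libraries averaged 8.38 ± 2.32 CPM and its PTU+TH libraries 18.5 ± 2.40 CPM (SD, n = 4 each), and edgeR gave a log2 fold change of 1.15 with an adjusted p of 0.00603. That call was lost with Y-linked counts as a covariate and when mice 15 and 16 were left out together, with adjusted p-values up to 0.130. Both fits take the group difference from the same libraries, those with Y-linked counts. Per kb of gene body, Syt2 and Pvalb averaged 0.116 and 0.142 CPM over the 8 libraries, and per kb of exon 1.76 and 2.09 CPM. The difference in response between Syt2 and Pvalb was not tested.

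Tac1 encodes the precursor of substance P and neurokinin A, peptides of the tachykinin family, and marks a type of parvalbumin basket cell. The gene lies on chromosome 6 at 7554879 to 7565834, on the plus strand. It gave between 1061 and 1885 counts per library. The PTU group had 68.7, 44.9, 67.5 and 46.4 CPM of Tac1 in mice 9 to 12, and the PTU+TH group had 45.3, 51.4, 58.5 and 59.6 CPM in mice 13 to 16. The PTU mice split into a high pair (9 and 11) and a low pair (10 and 12), and all injected mice but mouse 13 fell between them. The means were 56.9 ± 13.0 and 53.7 ± 6.69 CPM (SD, n = 4 each), with a log2 fold change of -0.083 (SE 0.15, 95% interval -0.41 to 0.24, edgeR's adjusted p = 0.910). Counting error would give a coefficient of variation of 2.70% in the PTU group, where 22.8% was seen.

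Tac1 is also a transcript of striatal projection neurons. Over the 8 libraries, its log2 CPM had a Pearson r of 0.84 with the summed striatal markers, and of 0.88 after group means were removed. With classes inside the sorted nuclei, r was 0.58 for SST, 0.092 for VIP and -0.16 for LAMP5 class markers, and 0.57 for the pan-GABAergic genes. The 8 points share library preparation and depth, and r is given as a description. The striatal list, 8 of 8 tested and 0 called, summed to 156 to 220 CPM in the PTU group and 146 to 178 CPM in the PTU+TH group. Most of the sum came from Rgs9 (82.3 CPM in the PTU group) and Penk (47.2 CPM). Of the genes that define striatal neurons, Drd1 averaged 14.3 and Drd2 13.8 CPM in the PTU group, Adora2a 1.35 CPM and Ppp1r1b 0.652 CPM, and only 24.6% of the body of Ppp1r1b is free of other genes. The genes of the list differed in how they lay across PTU mice 9 to 12. Rgs9, at 81.1, 75.4, 96.6 and 76.3 CPM, was higher in mice 9 and 11, as Tac1 was, while Drd1, at 16.5, 17.9, 10.3 and 12.6 CPM, was higher in mice 9 and 10. The part of striatal nuclei, or of other GABAergic classes, in the Tac1 level was not tested.

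Of the tachykinin partners, the receptor gene Tacr1 had 21.7 and 20.6 CPM in the PTU and PTU+TH groups, and the ligand gene Tac2 had 35.7 and 33.7 CPM. Tacr3, the neurokinin B receptor, had 1.21 and 2.37 CPM (log2 fold change 0.96, edgeR's adjusted p = 0.230). None of these 3 passed the test.

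Pthlh encodes parathyroid hormone-related protein, a secreted peptide found in parvalbumin interneurons. The gene lies on chromosome 6 at 147252101 to 147264183, on the minus strand. In PTU mice 9 to 12 the level of Pthlh was 5.17, 2.30, 2.57 and 2.93 CPM. In PTU+TH mice 13 to 16 it was 3.92, 2.96, 2.95 and 3.24 CPM. Mouse 9 was the highest and the other 3 PTU libraries lay below all 4 injected ones, so that the groups overlapped through that 1 library. The means were 3.24 ± 1.31 and 3.27 ± 0.456 CPM (SD, n = 4 each), with a log2 fold change of 0.0053 (SE 0.27, 95% interval -0.58 to 0.59, edgeR's adjusted p = 0.997). Without mouse 9 the log2 fold change was 0.335.

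The receptors of the parathyroid hormone family were also measured. Pth1r, which binds the Pthlh product, had 9.30 ± 0.516 and 10.7 ± 0.499 CPM (SD, n = 4 each, edgeR's adjusted p = 0.590). Its 4 PTU+TH libraries lay above all 4 PTU libraries, as was true of 4.68% of all genes tested. Pth2r had 16.3 and 10.2 CPM (log2 fold change -0.68, edgeR's adjusted p = 0.163). Pth had no count in any library. Over all 11 named ligands and receptors of the members, 9 were tested, 4 had a positive and 5 a negative log2 fold change, and 0 were called, beside 2.12% of all genes. Their median was -0.067, beside -0.0066 over all genes.

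Vipr2 encodes a receptor for vasoactive intestinal peptide and the related peptide PACAP, and marks chandelier cells. The gene lies on chromosome 12 at 116077726 to 116146261, on the plus strand. The antisense gene Gm20658 covers part of it, leaving 47.6% of its body free of other genes. Gm20658 had no count in any library, and whether the counting used strand is not stated. Vipr2 gave between 36 and 108 counts per library. In the PTU group it stood at 3.83, 3.46, 2.52 and 4.72 CPM in mice 9 to 12. In the PTU+TH group it stood at 1.98, 2.06, 2.45 and 1.71 CPM in mice 13 to 16. Every injected mouse was below every PTU mouse, with mouse 11 at 2.52 and mouse 15 at 2.45 CPM as the nearest pair.

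The means of Vipr2 were 3.63 ± 0.910 and 2.05 ± 0.306 CPM (SD, n = 4 each). The log2 fold change was -0.82 (SE 0.25, 95% interval -1.36 to -0.29), a ratio of 0.565, and edgeR's adjusted p was 0.130. DESeq2 gave -0.828 with an adjusted p of 0.0424, while in the other 19 alternatives the adjusted p lay between 0.0807 and 0.456. The sign was negative in all 20. The log2 ratio was -0.85 among mice 9, 10, 13 and 14 and -0.80 among mice 11, 12, 15 and 16. The separation within each set follows from that of the whole groups and adds nothing to it.

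The partners of Vipr2 did not pass the test. The mean of Vip, its ligand and the marker of another interneuron class, was 135 CPM in the PTU group and 110 CPM in the PTU+TH group (log2 fold change -0.29, edgeR's adjusted p = 0.369). Adcyap1, the gene of PACAP, had 2.32 and 2.23 CPM. The sister receptor Vipr1 had 4.98 and 5.20 CPM, and Adcyap1r1, the PACAP receptor, had 242 and 246 CPM. The 7 markers of the VIP class, all tested, had negative log2 fold changes with a median of -0.28 beside -0.0066 over all genes, and 1 of them was called, beside 0.634% of all genes called lower: Htr3a, a serotonin-gated channel subunit (log2 fold change -1.11, edgeR's adjusted p = 0.0344), of whose body only 43.0% is free of other genes. That call was lost in 9 of 20 alternatives, among them those without mouse 9, 10, 14, 15 or 16, with adjusted p-values up to 0.334.

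Tpbg encodes trophoblast glycoprotein, a leucine-rich repeat membrane protein, and is read here as a marker of a parvalbumin basket subtype. It lies on chromosome 9 at 85842380 to 85847040, on the plus strand. 9330154J02Rik on the opposite strand leaves 58.3% of its body free, and that transcript had 46 to 86 counts per library. Tpbg stood at 7.80, 6.06, 3.02 and 2.80 CPM in PTU mice 9 to 12, and at 6.75, 7.53, 10.0 and 6.28 CPM in PTU+TH mice 13 to 16. PTU mice 11 and 12 were low, while PTU mice 9 and 10 lay within or just under the range of the injected mice. The groups overlapped.

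The means of Tpbg were 4.92 ± 2.43 and 7.65 ± 1.67 CPM (SD, n = 4 each). The log2 fold change was 0.63 (SE 0.31, 95% interval -0.042 to 1.30, edgeR's adjusted p = 0.437). Mice 9, 10, 13 and 14 gave a log2 ratio of 0.043. The other set, mice 11, 12, 15 and 16, gave 1.49, a difference that was also not tested. The coefficient of variation of Tpbg in the PTU group was 49.4%, against 8.94% from counting error. Without PTU mouse 9 the log2 fold change was 0.944 (edgeR's adjusted p = 0.101).

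Markers of other cells moved with Tpbg. Its r over the 8 libraries was 0.78 with the summed microglia markers and -0.83 with the summed LAMP5 class markers. It was also 0.63 with oligodendrocyte, 0.62 with astrocyte and 0.50 with endothelium markers. With VIP class markers it was -0.76, with SST class markers -0.65 and with the pan-GABAergic genes 0.095. Most of the LAMP5 sum was Reln, at 1021 CPM in the PTU group. The microglia list, 6 of 7 tested and 0 called, summed to 50.4 to 71.2 CPM in the PTU group and 60.8 to 80.6 CPM in the PTU+TH group. Its P2ry12 had no count in any library, but that gene lies wholly inside another gene. Cx3cr1 of the same list was at 2.31 and 3.58 CPM in the PTU and PTU+TH groups. With the endothelium markers as a covariate, chosen after seeing the data, the log2 fold change of Tpbg was 0.619 (edgeR's adjusted p = 0.354). The part of these cells in the Tpbg values was not tested further.

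Mef2c encodes a MADS-box transcription factor that takes part in the development of parvalbumin interneurons and is also expressed by other neurons. It lies on chromosome 13 at 83504034 to 83667080, on the plus strand. Mef2c stood at 1013, 944, 1236 and 1140 CPM in PTU mice 9 to 12, and at 1028, 1022, 1139 and 1330 CPM in PTU+TH mice 13 to 16. The groups overlapped almost fully, and 1 injected mouse lay above the highest PTU mouse. The means were 1083 ± 130.1 and 1130 ± 144 CPM (SD, n = 4 each), with a log2 fold change of 0.061 (SE 0.16, 95% interval -0.28 to 0.40, edgeR's adjusted p = 0.942).

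The sister genes Mef2a, Mef2b and Mef2d, with 32.1, 4.55 and 106 CPM in the PTU group and 34.4, 4.11 and 109 CPM in the PTU+TH group, did not pass the test. Neither did any of the 4 class IIa deacetylase genes, whose products repress MEF2 factors. The nearest was Hdac4 with 217 and 291 CPM (log2 fold change 0.42, edgeR's adjusted p = 0.0842), with all 4 PTU+TH libraries above all PTU libraries. It passed the test in 5 of 20 alternatives, 1 of them the fit without mouse 11. Hdac5 separated the opposite way, with all 4 PTU+TH libraries below all PTU libraries (109 and 93.5 CPM, log2 fold change -0.23, edgeR's adjusted p = 0.294). Of all genes tested, 4.68% separated as Hdac4 did and 4.03% as Hdac5 did. Over these 7 genes 3 log2 fold changes were positive and 4 negative, with a median of -0.095 beside -0.0066 over all genes, and 0 were called, beside 2.12% of all genes.

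**Figure D2:**
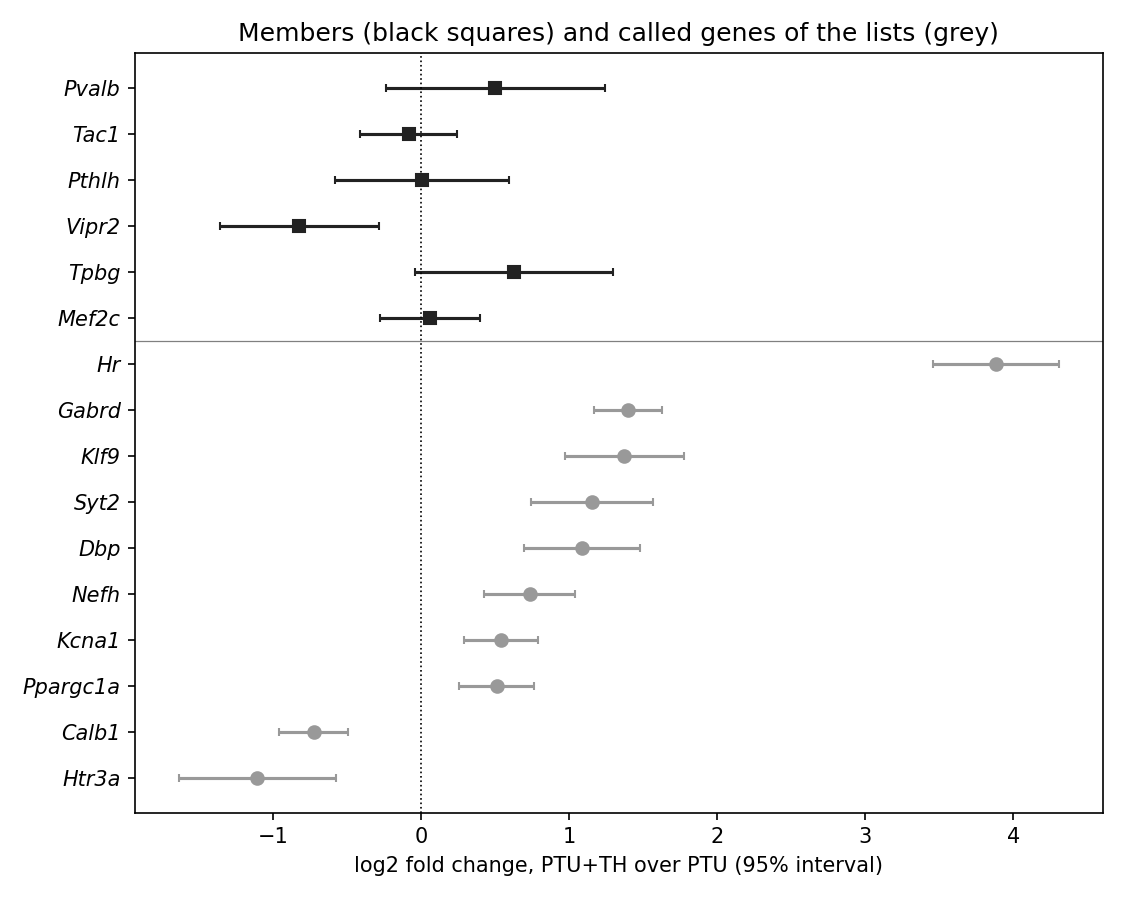
Log2 fold change of PTU+TH over PTU for the 6 members (black squares) and for the genes of the lists with an adjusted p under 0.05 by edgeR (grey circles), with 95% intervals. The intervals of all members but Vipr2 (-0.82) cross 0, and Syt2 stands at 1.15.

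Per length, the members spanned a wide range of levels. Mean CPM per kb of gene body over the 8 libraries was 6.79 for Mef2c, 5.05 for Tac1, 1.35 for Tpbg, 0.269 for Pthlh, 0.142 for Pvalb and 0.0415 for Vipr2. That order held in 7 of 8 libraries, and in mouse 9 Tac1 stood above Mef2c. The ranges of Mef2c (5.79 to 8.16) and Tac1 (4.10 to 6.27) overlapped, as did those of Pthlh (0.190 to 0.428) and Pvalb (0.0691 to 0.199), so these neighbours overlap in their spread over mice. Within libraries, Pthlh stood above Pvalb in 8 of 8 and Mef2c above Tac1 in 7 of 8. Divided by the length of the free part of the body instead, the whole-gene CPM of Vipr2 came to 0.0871 and that of Tpbg to 2.31 per kb.

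Per kb of exon, Mef2c (70.4) and Tac1 (16.3) kept the top places. Pvalb (2.09), Pthlh (2.01) and Tpbg (1.64 CPM per kb of exon) lay close together. The order of those 3 changed from library to library. Other class markers were far above Pvalb per kb of gene body, with Sst at 163, Vip at 14.6 and Lamp5 at 2.66 CPM. Per kb of exon they were also above it but by smaller ratios, with Sst at 314, Vip at 35.9 and Lamp5 at 16.0 CPM. By CPM, Pvalb ranked 13453 among the 17355 tested genes and Mef2c ranked 66. Whether intron reads were counted is not stated, and the ratios between genes differ between these scales.

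**Figure D3:**
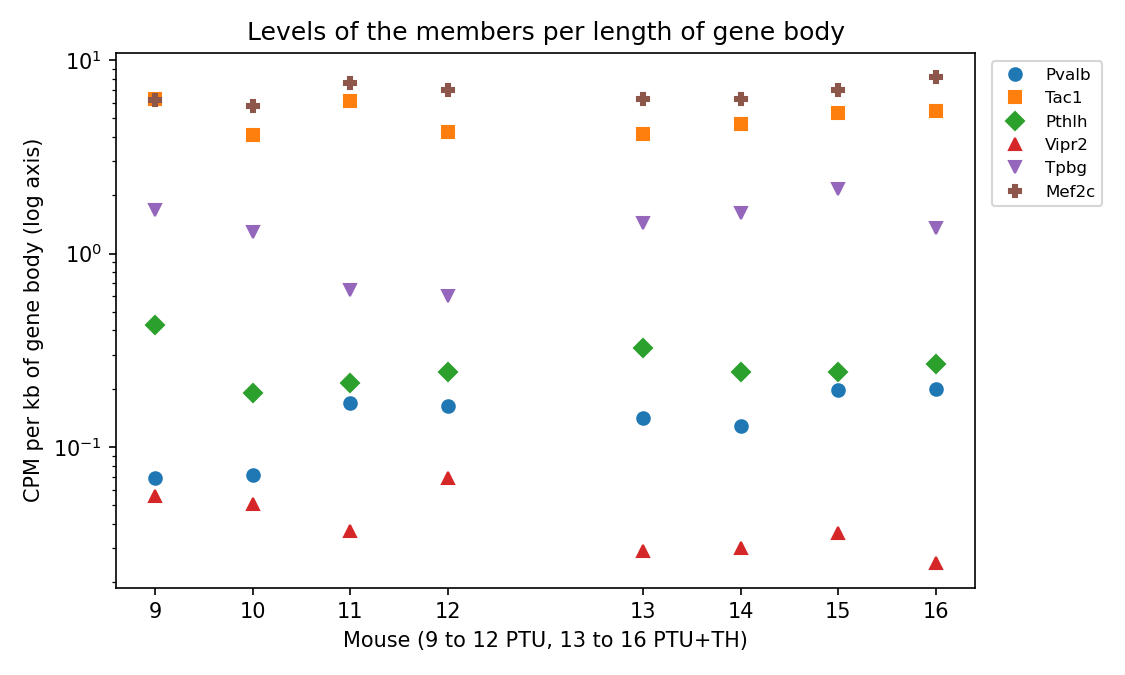
CPM per kb of gene body (log axis) of the 6 members in each mouse, PTU mice 9 to 12 and PTU+TH mice 13 to 16. Points are libraries, and the members keep the same order in 7 of 8 libraries, with Vipr2 lowest.

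The members did not vary as one group. Of the 15 pairs, Pvalb and Mef2c had the highest r over the 8 libraries, 0.81, and 0.85 after group means were removed. Pvalb and Tpbg had an r of -0.21 over the libraries and -0.78 after group means were removed. Mice 11 and 12 were high for Pvalb and Mef2c and low for Tpbg within the PTU group. These values describe 8 libraries that share preparation and depth.

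**Figure D4:**
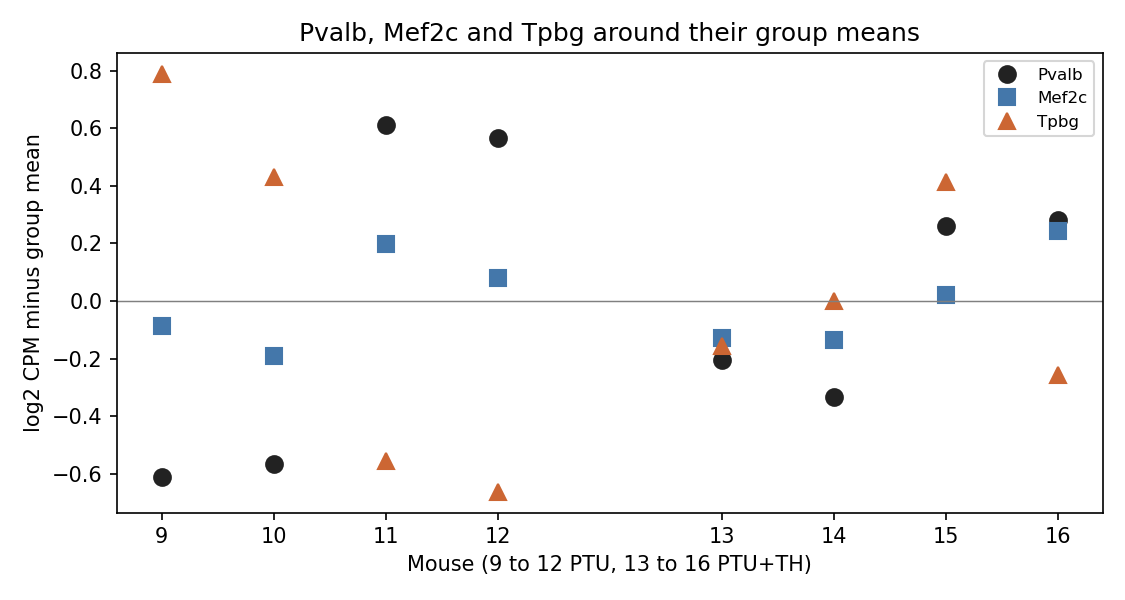
Log2 CPM of Pvalb, Mef2c and Tpbg minus their own group mean, for PTU mice 9 to 12 and PTU+TH mice 13 to 16. Points are libraries, and in mice 11 and 12 Pvalb and Mef2c lie above 0 while Tpbg lies below.

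The share of counts in long genes moved with the same libraries. Genes with a body of at least 100 kb, 2885 in all, held 37.4%, 40.5%, 48.9% and 46.6% of counts in PTU mice 9 to 12. Mice 13 to 16 had shares of 42.3%, 42.5%, 45.5% and 48.5%. Over the 8 libraries the r of this share was 0.89 with Pvalb, 0.88 with Mef2c and -0.52 with Tpbg, and after group means were removed it was 0.95, 0.88 and -0.81. Mef2c is itself such a gene, while Pvalb and Tpbg have bodies of 15.3 and 4.66 kb. With this share as a covariate, chosen after seeing the data, the log2 fold change of Tpbg was 0.902 with an adjusted p of 0.0330 by edgeR, in a fit that called 5.58% of all genes, and that of Pvalb was 0.422 with an adjusted p of 0.404. Vipr2 gave -0.80 with an adjusted p of 0.0860. What sets the share of long genes was not tested.

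The summed VIP class markers followed Pvalb in the same way, with an r of 0.68 over the 8 libraries and 0.95 after group means were removed. Most of that sum is the long gene Adarb2, at 2862 CPM in the PTU group and 2675 CPM in the PTU+TH group.

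For each member, the 15229 tested genes averaging 1 CPM or more were ranked by their r of log2 CPM over the 8 libraries. Among those nearest to Pvalb were Gm7135 (0.986) and Pcdh9 (0.977), and 261 genes had an r over 0.9 with it. For Mef2c they were Vsnl1 (0.986), Ttll11 (0.984) and Junos (0.968), with 119 genes over 0.9. For Tpbg they were Htr1a (0.993), Uqcr11 (0.991) and Homez (0.985), with 202 over 0.9. The nearest to Tac1 were Snx10 (0.957), Kifap3 (0.9495) and Echdc1 (0.948). Those nearest to Pthlh were Fibin (0.944), Gm16001 (0.936) and Gm7553 (0.921). Vipr2 was nearest to A430018G15Rik (0.966), Pygl (0.958) and 4930439D14Rik (0.942). Pygl, glycogen phosphorylase of the liver type, was the only 1 of the genes named here as nearest to a member to be called, with a log2 fold change of -1.21 (edgeR's adjusted p = 0.0355).

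Among 17 genes of parvalbumin class and maturation, a list chosen with earlier results of these data known, 16 were tested. As a description only, 4 rose and 0 fell, beside 1.49% and 0.634% of all genes tested. Their median log2 fold change was 0.16, beside -0.0066 for all genes. Besides Syt2, these were Nefh, the heavy neurofilament (10.3 to 17.2 CPM, edgeR's adjusted p = 0.0168), Kcna1, a potassium channel (26.8 to 38.9 CPM, adjusted p = 0.0301), and Ppargc1a, a coactivator of mitochondrial genes (121 to 172 CPM, adjusted p = 0.0407). All 4 calls were lost both with Y-linked counts as a covariate and when mice 15 and 16 were left out together. These 2 fits take the group difference from the same libraries, those with Y-linked counts, and are not separate checks. In all, the calls were lost in 2 of 20 alternatives for Syt2, 6 for Nefh, 9 for Kcna1 and 9 for Ppargc1a. Nefh, Kcna1 and Ppargc1a were each lost without mouse 14, 15 or 16, Kcna1 and Ppargc1a also without mouse 10 or 12, and Ppargc1a without mouse 13. Cox6a2 had no count in any library and lies wholly inside another gene.

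Of 13 genes that mark transcriptomic types of parvalbumin neuron, also listed with earlier results known, 11 were tested. Among them 0 rose and 1 fell, beside the same 1.49% and 0.634% of all genes. That gene was Calb1, the calcium buffer calbindin, which went from 198 to 120 CPM (log2 fold change -0.73, edgeR's adjusted p = 0.00328), a call lost in 1 of 20 alternatives. The libraries pool GABAergic neurons of several classes, and which class carried the fall of Calb1 was not tested. Pvalb and Calb1 are both calcium buffers, and among the 6 genes listed as such besides Pvalb, 5 were tested and Calb1 was the only 1 called. Th, tyrosine hydroxylase, had 12.0 ± 4.35 and 20.3 ± 2.45 CPM (SD, n = 4 each, edgeR's adjusted p = 0.133). All 4 PTU+TH libraries of Th lay above all PTU libraries, as was true of 4.68% of all genes tested.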

How the data were processed

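Nuclear RNA of sorted cortical GABAergic nuclei was sequenced in 8 libraries of 1 mouse each. Per the labels' protocols, RNA was extracted with a Qiagen micro kit, cDNA was prepared by Takara SMART-Seq v4, tagmented with Nextera XT and read single end on a NextSeq instrument. Per the submitters' processing notes, Bowtie2 2.5.3 and the builds GRCm38 and mm10 were used. The counting program, its use of strand and its treatment of introns are not given in the sources used here. The authors deposited raw counts per gene for 55341 symbols, all of which match GENCODE M21 on GRCm38, the annotation used here for positions and lengths.

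Genes were kept with filterByExpr (17355), scaled by TMM, and tested with the robust quasi-likelihood test of edgeR 4.0.16 in R 4.3.3, all 8 libraries in 1 fit, with group as the only term. Two-sided p-values were adjusted by Benjamini-Hochberg over all genes tested, with calls made below 0.05. CPM were computed from the deposited counts with the scaled library sizes. Correlations used log2 CPM with a prior count of 2. DESeq2 1.42.0, limma voom 3.58.1, other scalings and filters, covariates and leaving out each library were alternatives. The script was tested on simulated data. Totals of 21.8 to 29.1 M counts gave counting errors smaller than the spread between mice in every member and group, closest for Vipr2 in the PTU+TH group (14.2% against 14.9%). Poisson intervals cover counting error only.

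The members and gene lists were chosen with earlier results of these data known. Genes named are the members, the called or defining genes of the lists, the tested ligands, receptors and MEF2 genes, and for each member the 3 genes most like it, of which 1 is not reported here; Th, Hdac4, Hdac5, Drd2, Adarb2, Reln, Rgs9, Penk, Adora2a, Ppp1r1b and 9330154J02Rik were named after their values were seen. Mouse numbers differ between the groups, so they pair no samples. Each mouse was a separate sample. Within groups, counts of any 2 libraries differed beyond sampling noise, with a chi-square per degree of freedom of 8.38 to 72.6 in the 12 pairs.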

Additional observations from a re-analysis of the deposited data

Results flagged for a closer look

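In 3 of 74 sets of 4 libraries, 1 library stood apart from the other 3 by Dixon's criterion, where chance flags about 5% of sets, or 3.7 here. None of the 3 was a member. The search covered 37 genes in each group, namely the members, the called genes of the lists and their defining or partner genes. Genes named after their values were seen were not searched. Adora2a, 1 of these, was at 2.60 CPM in PTU mouse 10 and at 0.875 to 1.06 CPM in the other PTU mice. Cldn5, a tight junction gene of endothelium, was at 69.1 CPM in PTU mouse 10 and at 7.17 to 16.9 CPM in the other PTU mice. Htr3a was at 11.4 CPM in PTU mouse 9 and at 6.25 to 6.83 CPM in the other PTU mice. Lamp5, a marker of another interneuron class, was at 64.3 CPM in PTU+TH mouse 13 and at 39.1 to 39.5 CPM in the other injected mice.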

How the results depend on the processing

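No paired analysis was possible because no mouse number occurs in both groups. The count of called genes, 368, was 756 with DESeq2, 642 with the sets of mouse numbers as a covariate, 969 with the share of long genes as a covariate (chosen after seeing the data, like the endothelium covariate), 129 with Y-linked counts as a covariate and 58 after leaving out the libraries that lack them. Leaving out 1 library gave 182 (without mouse 15) to 499 (without mouse 9). Of the members, Vipr2 passed with DESeq2 (-0.828) and Tpbg with the long-gene covariate (0.902), and no other alternative changed a call. Pvalb, Vipr2 and Tpbg kept their sign in all 20 alternatives. Pthlh was -0.035 with library totals alone, and Mef2c was -0.079 with the Y-linked covariate and -0.078 when libraries lacking such counts were left out. Leaving out 1 library moved Tac1 between -0.176 and 0.027, Pthlh between -0.128 and 0.335, Mef2c between -0.026 and 0.131, Pvalb between 0.316 and 0.719, Tpbg between 0.434 and 0.944 and Vipr2 between -0.96 and -0.674. Fewer libraries were used in those fits. The fit with Y-linked counts as a covariate also takes the group difference only from the libraries that have such counts. The cause of the other changes was not tested.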

Other observations

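Gabrd, the delta subunit of extrasynaptic GABA-A receptors and a member of the LAMP5 class list, rose from 37.1 to 97.9 CPM (log2 fold change 1.40, edgeR's adjusted p = 1.67e-05), and the call was kept in all 20 alternatives. Of the other 4 genes of that list none was called, and Lamp5 itself had 48.3 and 45.5 CPM. Of the 7 SST class markers none was called, and Sst had 233 and 219 CPM. Over all genes tested 2.12% were called.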
